A study of Mus musculus with 15 samples.

Results

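NF-kB subunits and inhibitors are described here in 2 mouse cell lines exposed to dexamethasone, a synthetic glucocorticoid. The members were 10 genes listed by name: the subunits Nfkb1, Nfkb2, Rela and Relb, the IkB proteins Nfkbia, Nfkbib, Nfkbie and Nfkbiz, and the signalling inhibitors Tnfaip3 and Tnip1. Of these, 9 had a value and all 9 reached the level required for testing, among 9919 genes tested of 15025 with a value. Relb was matched by no probeset with 1 gene name in the annotation used here and is not analysed here. RNA was measured on 15 Affymetrix mouse exon arrays, which carry separate probesets for the exons of a gene, 1 sample per array. The groups were 3134 cells at 0, 2, 4 and 8 h of 100 nM dexamethasone, with 2 arrays each, and AtT-20 cells at 0, 2 and 4 h with 2 arrays each and at 8 h with 1 array. The 3134 line was made by transforming C127 cells, which come from a mammary adenocarcinoma of the RIII mouse strain. AtT-20 cells come from pituitary corticotrophs, the cells that secrete ACTH, of the LAF1 strain, and each tissue is represented by 1 line. All groups, controls included, had been kept in charcoal-dextran-treated serum before the hormone was given, and the 0 h samples are called both untreated and vehicle treated in the labels. No untreated arrays were taken at 2, 4 or 8 h, so hormone and time in culture cannot be told apart.

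NF-kB is a family of dimeric transcription factors that activate inflammatory and survival genes. In unstimulated cells the dimers are held in the cytoplasm by IkB proteins, and signals from cytokine and Toll-like receptors lead, through the IkB kinase, to destruction of the IkB and entry of the dimer into the nucleus. Several IkB and subunit genes are themselves NF-kB targets, which closes feedback loops. Glucocorticoids are known for damping NF-kB activity, and a rise of Nfkbia transcripts, which encode IkB alpha, is one route described for it in some cell types.

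The promoters of the 3 members whose transcripts passed a dexamethasone comparison, Nfkbia with the run as a block alone, are shown first, to set the kB sites in them beside the values. Each sequence is the 250 bases before a gene start in RefSeq (build GRCm38.p6), 5′ to 3′ on the gene's strand, with matches to the kB consensus in capitals. They lie at chr12:55492648-55492897 on the minus strand for Nfkbia, chr17:45555450-45555699 on the plus strand for Nfkbie, and chr19:46304487-46304736 on the plus strand for the first of 3 listed starts of Nfkb2.
Nfkbia: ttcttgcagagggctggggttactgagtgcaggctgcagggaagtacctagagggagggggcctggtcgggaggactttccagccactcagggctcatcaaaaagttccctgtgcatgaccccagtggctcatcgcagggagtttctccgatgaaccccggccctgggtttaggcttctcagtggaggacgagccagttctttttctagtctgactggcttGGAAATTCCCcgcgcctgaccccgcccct
Nfkbie: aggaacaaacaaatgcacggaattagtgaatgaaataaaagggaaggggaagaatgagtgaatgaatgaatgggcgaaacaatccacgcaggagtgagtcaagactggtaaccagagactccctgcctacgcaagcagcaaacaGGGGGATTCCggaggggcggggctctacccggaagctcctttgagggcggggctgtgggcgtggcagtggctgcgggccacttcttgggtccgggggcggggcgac
Nfkb2: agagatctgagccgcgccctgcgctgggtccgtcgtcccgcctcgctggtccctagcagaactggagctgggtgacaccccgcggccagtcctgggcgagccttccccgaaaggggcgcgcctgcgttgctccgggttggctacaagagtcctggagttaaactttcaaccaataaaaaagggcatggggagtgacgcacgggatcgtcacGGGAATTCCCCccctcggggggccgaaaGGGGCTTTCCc

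Of the 10 members, 7 matched a promoter entry, with 10 sequences in all; Nfkb1, Nfkbiz and Relb are named only. The kB consensus, the decamer bound by NF-kB dimers, was searched on both strands and matched 7 of these sequences, from 5 members: Nfkb2, Nfkbia, Nfkbie, Tnfaip3 and Tnip1. Over the same length it matched 3.9% of 32851 mouse promoter sequences. In Nfkbia the match lay 29 to 20 bases before the start, on the reverse strand, and in Nfkbie 106 to 97 bases before it. In Nfkb2 matches on both strands overlapped from 39 to 29 bases before the start, and a further one lay 11 to 2 bases before it. The core of the glucocorticoid response element, ACANNNTGT, matched the sequences of 0 members and 5.84% of all promoters. The AP-1 site TGANTCA matched sequences of 3 members, Nfkb2, Nfkbie and Tnfaip3, and 6.75% of all promoters. A match describes letters in this window and does not show that a factor binds there. At a share of 5.84%, the absence of a match in 10 sequences says little, and bases outside the window were not searched.

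Values are log2 array units after quantile normalization, and a gene's value is the median over its probesets, so levels are compared between arrays and never between genes. A gene was tested where its highest group mean reached log2 6.592, the 40th percentile of probeset values. The sample titles carry DS numbers whose meaning is not stated. In each line they fall into a lower and a higher series, here called the first and the second run, and deposited medians differed between the runs. Whether a run is a culture, an extraction or a day is not known. Each comparison was therefore fitted once without a term for the run and once with the run as a block; both results are given where the call differs. Whether the 2 arrays of a group held separate cultures is not stated, and the p-values therefore reflect array-to-array spread alone, possibly technical. Of 6 corticotroph markers, 6 reached the testing level in AtT-20 and 0 in 3134. Of 6 epithelial markers, 0 or 1 reached it in any 3134 group, against 6 of 6 mesenchymal markers, although the label gives a mammary adenocarcinoma. In AtT-20, 2 of the 6 epithelial markers reached it in every group, and 0 or 1 of the 6 mesenchymal markers. Of 7 immune cell markers, 2 reached it in 3134, Cd68 and Cd14, and 0 in AtT-20.

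**Figure D1:**
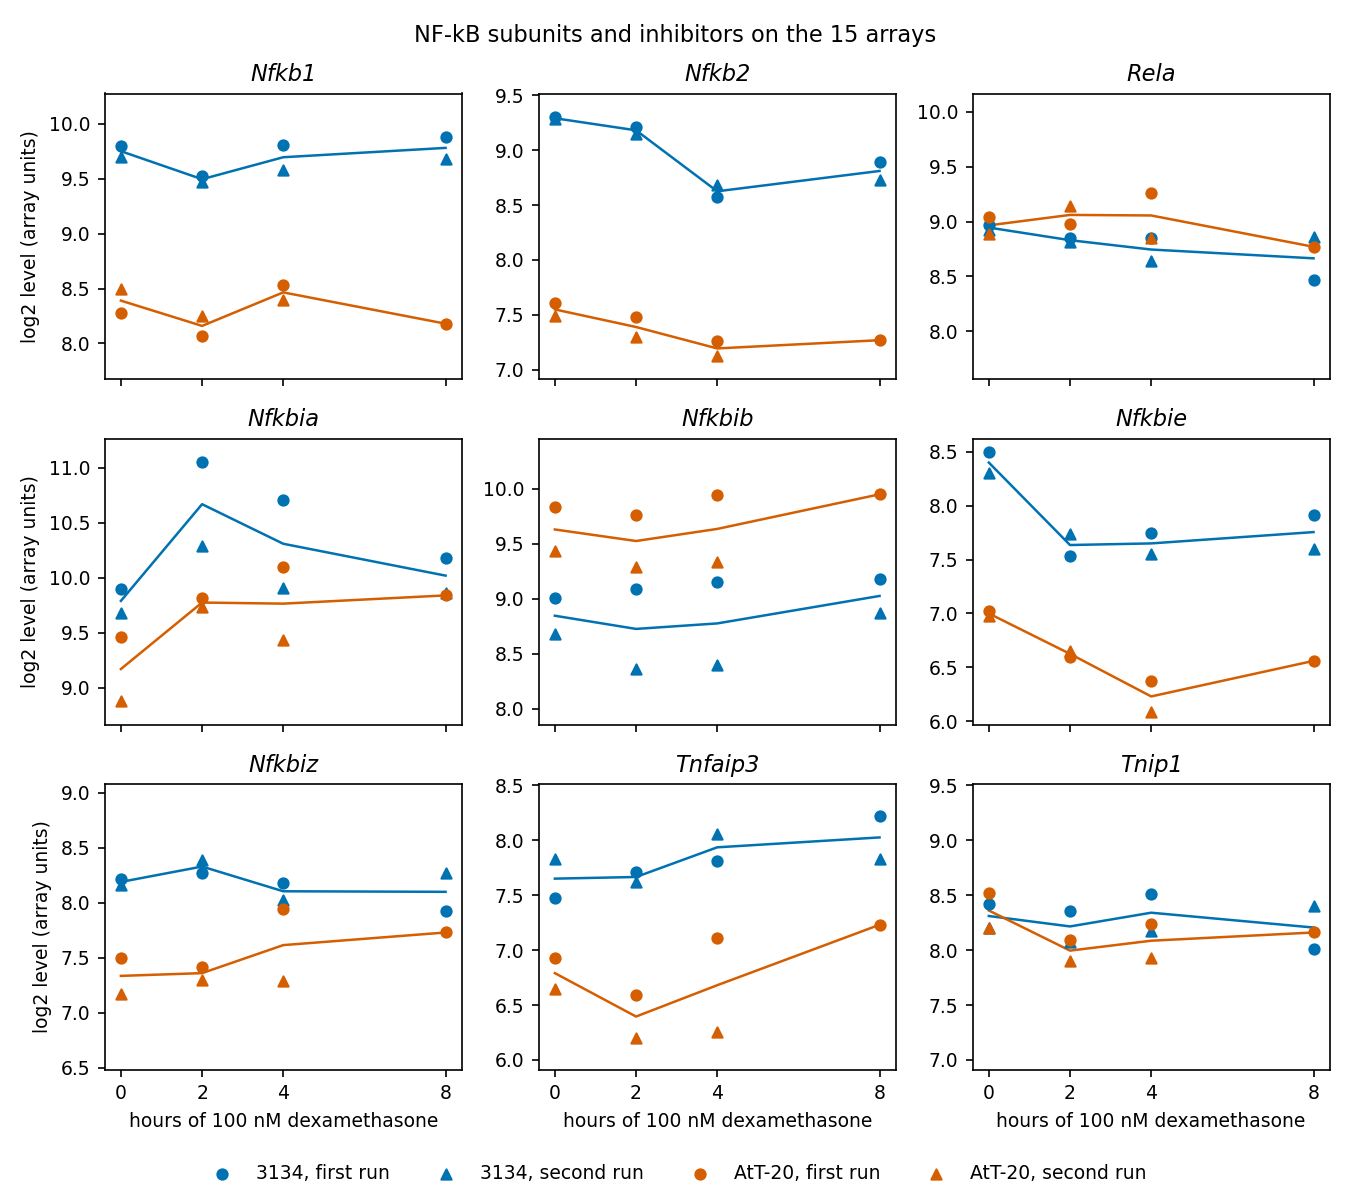
Log2 level (vertical axes, array units, each panel 1 gene on its own range) of the 9 measured members against hours of 100 nM dexamethasone, with 1 point per array, circles for the first run, triangles for the second and lines through the group means. In 3134 (blue) Nfkbie starts at 8.50 and 8.30 and all treated arrays lie below 8; the orange AtT-20 points lie below the blue ones for Nfkb1, Nfkb2 and Nfkbie on every array.

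In 3134 cells, dexamethasone was followed by lower transcript levels of Nfkbie and Nfkb2, while Nfkbia was higher with a large difference between the runs. Nfkbie, which encodes IkB epsilon, was 1.64-fold lower over the mean of 2, 4 and 8 h, and Nfkb2, the p100 precursor of the non-canonical pathway, was 1.58-fold lower at 4 h. Nfkbia was 1.84-fold higher at 2 h and passed there only with the run as a block. The other 6 measured members passed in 0 dexamethasone comparisons in either line, in the fits with and without the block. As the arrays measure RNA of whole cultures, fewer cells with a transcript and less transcript per cell cannot be told apart.

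Counted over the members, limma called 0 of 9 in 3134 at 2 h, against 1.23% of all genes tested. An unadjusted p under 0.05 was found there for 2 members, beside 495 of all 9919 genes. At 4 h limma called 1 lower, Nfkb2, against 1.91%, and at 8 h 0, against 2.19%. At 8 h 2 members were under the unadjusted threshold, beside 1140 of all genes. For the mean of the 3 times it called 1 lower, Nfkbie, against 2.42%. With the run as a block Nfkbia was called higher and Nfkbie lower at 2 h, where 3% of all genes were called. Nfkb2 and Nfkbie were called lower at 4 h (5.19%) and again at 8 h (7.9%). For the mean, Nfkbia was called higher and Nfkb2 and Nfkbie lower (6.55%). Between 8 and 2 h in 3134, 0 members passed, against 0.0907% of genes. There 1 member had an unadjusted p under 0.05, beside 723 of all genes tested. Calls at several times use the same 0 h arrays and are not independent of each other. The median log2 change of the members over the mean of the 3 times was -0.06, beside -0.02 for all genes tested.

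**Figure D2:**
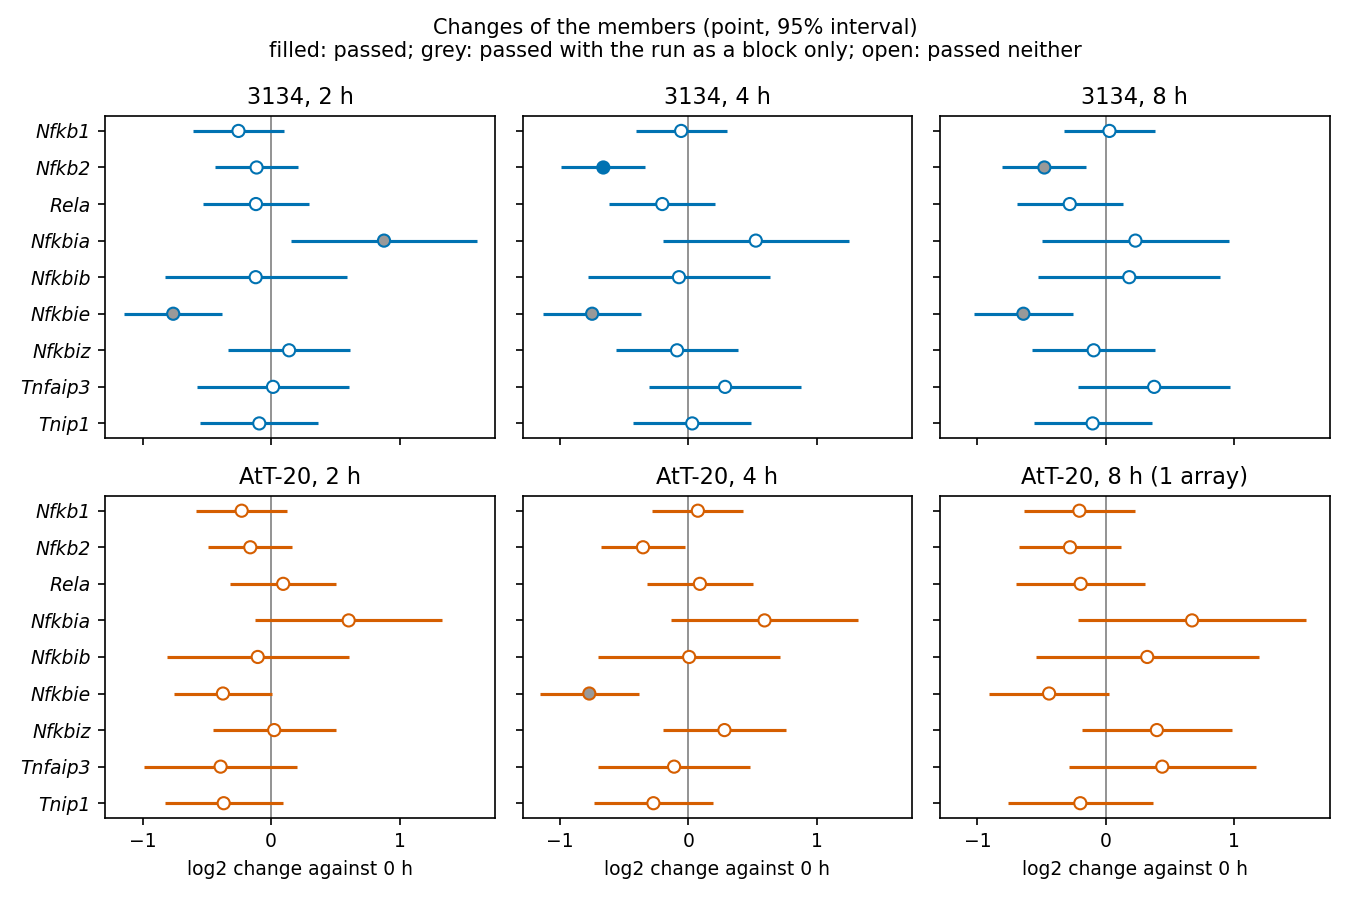
Log2 change against 0 h (horizontal axes) of each member at each time, with the 95% interval of the limma fit without the block; filled points passed, grey points passed with the run as a block only, and open points passed in neither. The intervals of Nfkbie in 3134 lie below 0 at all 3 times, and the only filled point is Nfkb2 in 3134 at 4 h.

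Nfkb2 read 9.30 and 9.28 in 3134 at 0 h, 9.21 and 9.15 at 2 h, 8.57 and 8.68 at 4 h, then 8.89 and 8.73 at 8 h (first and second run). All 6 treated arrays lay below both controls, by 0.09 to 0.73 against the control of the same run. The log2 change was -0.11 at 2 h, -0.66 at 4 h (SE 0.15, limma adjusted p = 0.0459) and -0.48 at 8 h (adjusted p = 0.166, and 0.0361 with the block). The 4 h call was lost when any 1 of the 4 arrays at 0 or 4 h was left out (adjusted p 0.154 to 0.332), while the change stayed between -0.72 and -0.61. Of its 25 probesets, 24 were lower at 4 h, with a median change of -0.60.

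In AtT-20 the Nfkb2 values were 7.61 and 7.49 at 0 h, 7.48 and 7.30 at 2 h, 7.26 and 7.13 at 4 h, and 7.27 at 8 h. Each of the 5 treated arrays lay below the control of its own run, by 0.13 to 0.36. The change at 4 h was -0.35 (SE 0.15) with an adjusted p of 1, or 0.369 with the block. The mean change over 2 and 4 h differed between the lines by -0.13 (3134 minus AtT-20; 95% interval -0.53 to 0.27), which was not called.

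Nfkb1 encodes p105, the precursor of the p50 subunit. It read 9.80 and 9.70 in 3134 at 0 h, 9.52 and 9.47 at 2 h, 9.81 and 9.58 at 4 h, then 9.88 and 9.68 at 8 h. In AtT-20 it read 8.28 and 8.50, then 8.07 and 8.25, then 8.53 and 8.40, and 8.18 at 8 h. At 2 h the median over probesets was below 0 h by 0.25 in 3134 and by 0.23 in AtT-20, and none of its changes passed. In AtT-20 the probesets did not move together at 2 h, since 14 of 29 were higher and 15 lower. In 3134, 8 were higher and 21 lower.

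Rela, the p65 subunit that carries a transactivation domain, read 8.97 and 8.92 in 3134 at 0 h and 8.85 and 8.81 at 2 h. At 4 h it read 8.85 and 8.64, and at 8 h 8.47 and 8.86. All 6 treated arrays were below their control, by 0.06 to 0.50, but the mean change of -0.20 (SE 0.15, 95% interval -0.54 to 0.14) did not pass. In AtT-20 the values ran from 8.77 to 9.26 with controls at 9.04 and 8.89, so the groups overlapped.

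Nfkbia, the IkB alpha gene, read 9.90 and 9.68 in 3134 at 0 h, 11.05 and 10.29 at 2 h, 10.71 and 9.91 at 4 h, then 10.18 and 9.86 at 8 h. In AtT-20 it read 9.46 and 8.88 at 0 h, 9.82 and 9.73 at 2 h, 10.10 and 9.43 at 4 h, and 9.84 at 8 h. Every treated array was higher than the control of its own run, in 6 of 6 cases in 3134 by 0.18 to 1.15 and in 5 of 5 in AtT-20 by 0.36 to 0.85. Across runs the groups overlapped in part, since the second-run arrays of 3134 at 8 h and of AtT-20 at 4 h lay below the first-run controls.

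The Nfkbia change at 2 h in 3134 was 0.88 (SE 0.33, limma adjusted p = 0.649), and with the run as a block the adjusted p was 0.0177. On leaving out 1 array at 0 or 2 h, without the block, the change ran from 0.50 to 1.26. The changes at 4 and 8 h were 0.52 and 0.23, and neither passed in either fit. The mean over the 3 times, 0.54, passed with the block by a small margin (adjusted p = 0.049). From 2 to 8 h in 3134 the level came down by 0.65 (SE 0.33), which did not pass (adjusted p = 0.715, and 0.0904 with the block). In AtT-20 the changes without the block were 0.60 and 0.59 at 2 and 4 h, and neither passed in either fit. At 8 h the change was 0.67 against the mean of both controls. That 1 array is of the first run and lay 0.38 above the control of its run. The 6 Nfkbia probesets all pointed upward at every time in both lines.

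Nfkbie read 8.50 and 8.30 in 3134 at 0 h, 7.53 and 7.74 at 2 h, 7.75 and 7.55 at 4 h, then 7.91 and 7.60 at 8 h. All 6 treated arrays lay below both controls, and below the control of the same run by 0.56 to 0.97. The log2 changes were -0.76, -0.75 and -0.64 (SE 0.175 each), with limma adjusted p of 0.0704, 0.0563 and 0.102. With the block all 3 times passed, at 0.0137, 0.0116 and 0.0227. The mean change of -0.72 passed in both fits (adjusted p = 0.0189, and 0.00325 with the block). It no longer passed without the first-run array at 0 h (adjusted p = 0.366), the second-run array at 0 h (0.12) or the first-run array at 2 h (0.0508). The 8 Nfkbie probesets were all lower at all 3 times.

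In AtT-20, Nfkbie read 7.02 and 6.98 at 0 h, 6.60 and 6.65 at 2 h, 6.37 and 6.09 at 4 h, and 6.56 at 8 h. All 5 treated arrays lay below both controls, and 3 of them lay below the testing level of 6.592, where array signal is dim. The change at 4 h was -0.77 (SE 0.175, limma adjusted p = 0.318) and was called in the blocked fit alone (adjusted p = 0.037), where 0.857% of all genes were called. That was the single member call among the AtT-20 comparisons. The mean change over 2 and 4 h differed between the lines by -0.18 (95% interval -0.65 to 0.29), which did not pass.

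**Figure D3:**
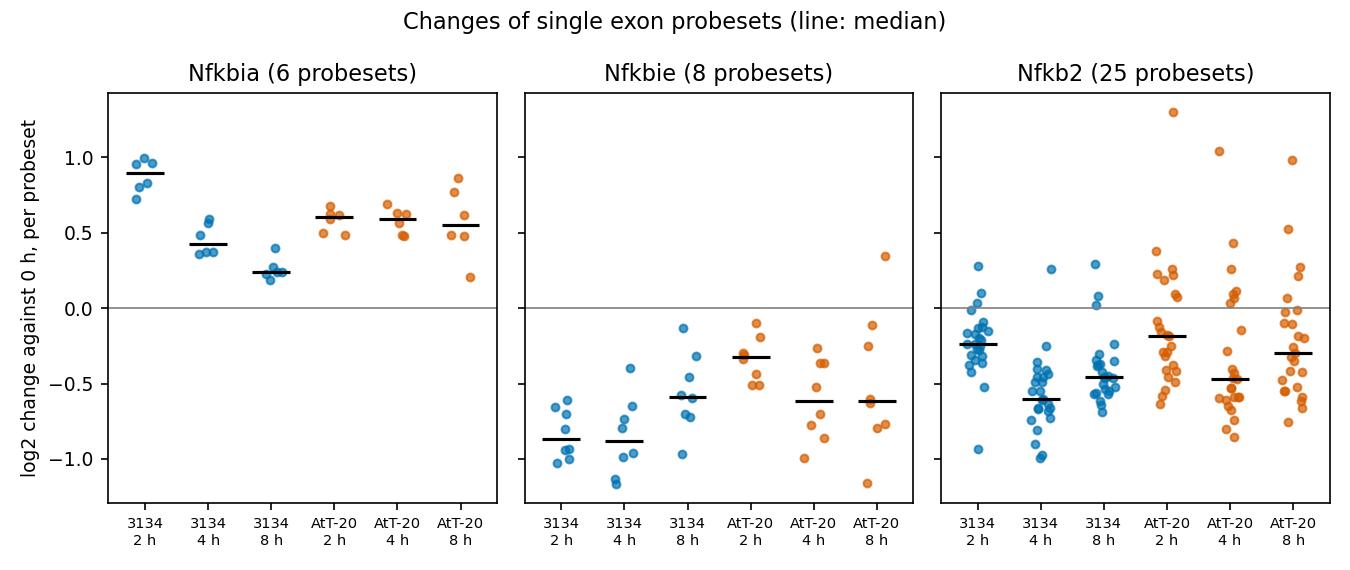
Log2 change against 0 h (vertical axis) of every probeset of Nfkbia, Nfkbie and Nfkb2, by line and time, with 1 point per probeset and a bar at the median. All Nfkbia points lie above 0, the Nfkbie points lie below 0 in all but 1 case in AtT-20 at 8 h, and the Nfkb2 points in 3134 at 4 h centre on -0.60.

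Nfkbib, which encodes IkB beta, read 9.01 and 8.68 in 3134 at 0 h and between 8.36 and 9.18 on the treated arrays. In AtT-20 it read 9.83 and 9.43 at 0 h and between 9.29 and 9.95 after dexamethasone. The runs differed: the first-run array was the higher one at 0, 2, 4 and 8 h in 3134 and at 0, 2 and 4 h in AtT-20. Its mean change in 3134 was 0.00 (SE 0.27) and did not pass.

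Nfkbiz encodes IkB zeta, a nuclear IkB that acts with NF-kB at selected target genes. It read 8.22 and 8.16 in 3134 at 0 h and between 7.93 and 8.39 on the treated arrays, on both sides of the controls. In AtT-20 it read 7.50 and 7.17 at 0 h, 7.42 and 7.30 at 2 h, 7.94 and 7.29 at 4 h, and 7.73 at 8 h. Its changes ran from -0.10 to 0.14 in 3134 and from 0.02 to 0.40 in AtT-20, and none passed. The value of 0.40 is that of the 8 h array, of the first run, which lay 0.23 above the control of its run.

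Tnfaip3 encodes a ubiquitin-editing enzyme that ends signalling upstream of the IkB kinase. It read 7.47 and 7.83 in 3134 at 0 h, 7.71 and 7.62 at 2 h, 7.81 and 8.06 at 4 h, then 8.22 and 7.83 at 8 h. In AtT-20 it read 6.93 and 6.65, then 6.59 and 6.20, then 7.11 and 6.25, and 7.23 at 8 h. At 2 h both AtT-20 arrays were below both controls, with a change of -0.39 (SE 0.27) that did not pass. Such a separation downward was seen there for 5 of 9 members, and 22% of all genes tested did not overlap in either direction. The mean change over 2 and 4 h was 0.40 higher in 3134 than in AtT-20 (95% interval -0.32 to 1.13), also short of the threshold.

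Tnip1 encodes a ubiquitin-binding partner of the Tnfaip3 protein. It read 8.42 and 8.20 in 3134 at 0 h and between 8.01 and 8.51 on the treated arrays, which overlapped the controls. In AtT-20 it read 8.52 and 8.20 at 0 h, 8.09 and 7.90 at 2 h, 8.24 and 7.93 at 4 h, and 8.16 at 8 h. Each of these 5 arrays was below the control of its run, by 0.27 to 0.43, and 0 of the changes passed.

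In AtT-20, limma called 0 of 9 members at 2 h (0.0907% of all genes), at 4 h (0.171%), at 8 h with its 1 array (0.121%) and for the mean of 2 and 4 h (0.181%). At 2 h, at 4 h and for the mean, unadjusted p-values under 0.05 numbered 0, 2 and 1, beside 237, 337 and 339 of all 9919 genes. The difference between the lines in the mean response was called for 0 of 9 members and for 0.645% of genes, or 2.73% with the block. For that difference 0 members had an unadjusted p under 0.05, beside 549 of all genes. The standard error of that difference ran from 0.183 for Nfkb2 to 0.407 for Nfkbia, which sets the size of difference these arrays could show. In 3134, treated arrays all lay below both controls for 3 of 9 members, Nfkb2, Nfkbie and Rela, and above them for 0, with 12.6% of all genes tested not overlapping.

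The larger contrast among the members was the one between the lines. Before hormone, 5 of 9 members were higher in 3134 than in AtT-20 and 0 were lower, where 54.5% of all genes tested differed in either direction. With the run as a block 6 were higher and 1 lower, against 66.8% of all genes. The count of members is therefore near the background. Nfkb2 was 3.34-fold higher in 3134 (log2 1.74, SE 0.15, limma adjusted p = 8.69e-07). Nfkbie was 2.64-fold higher (log2 1.40, SE 0.175, adjusted p = 2.53e-05) and Nfkb1 2.57-fold higher (log2 1.36, SE 0.16, adjusted p = 1.65e-05).

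Nfkbiz and Tnfaip3 were 1.81-fold and 1.82-fold higher in 3134 (adjusted p = 0.00542 and 0.0179). Leaving out the second-run AtT-20 array at 0 h ended both calls (0.0503 and 0.101), and leaving out the second-run 3134 array ended that of Tnfaip3 (0.127). Nfkbia was 1.54-fold higher (adjusted p = 0.138, and 0.00924 with the block). Its 0 h values of 9.90 and 9.68 lay above 9.46 and 8.88, in a comparison where 77.1% of all genes tested did not overlap. On leaving out 1 of these 4 arrays the log2 difference ran from 0.33 to 0.91. Nfkbib was 1.73-fold lower in 3134 (adjusted p = 0.0583, and 4.83e-04 with the block). Rela and Tnip1 differed by -0.02 (95% interval -0.43 to 0.39) and -0.05 (-0.51 to 0.41).

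The probesets of Nfkb1 did not share 1 line difference. At 0 h, 17 of the 29 were higher in 3134 by 1.27 to 2.69, the other 12 ran from -0.54 to 0.35, and no probeset fell in the gap of 0.92 between these groups. The mean over the 17 was 9.31 and 9.34 in 3134 and 7.71 and 7.37 in AtT-20 at 0 h. The mean over the 12 was 9.23 and 9.38 in 3134 and 9.41 and 9.45 in AtT-20. This split was seen in the values and is a description. After hormone the 17 ranged from 9.15 to 9.33 in 3134 and from 7.37 to 7.59 in AtT-20, and the 12 from 9.05 to 9.58 in 3134 and from 9.61 to 9.75 in AtT-20. In AtT-20 the 12 were above the control of the same run on all 5 treated arrays. Their mean change over 2 and 4 h there was 0.23, beside -0.08 for the 17, a difference that was not tested by itself. In 3134 the mean changes over the 3 times were 0.00 and -0.09. Because most probesets lay above the gap, the median over probesets gave a line difference of 1.36 and the mean over probesets 1.00. Exon positions of the probesets were not used here.

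**Figure D4:**
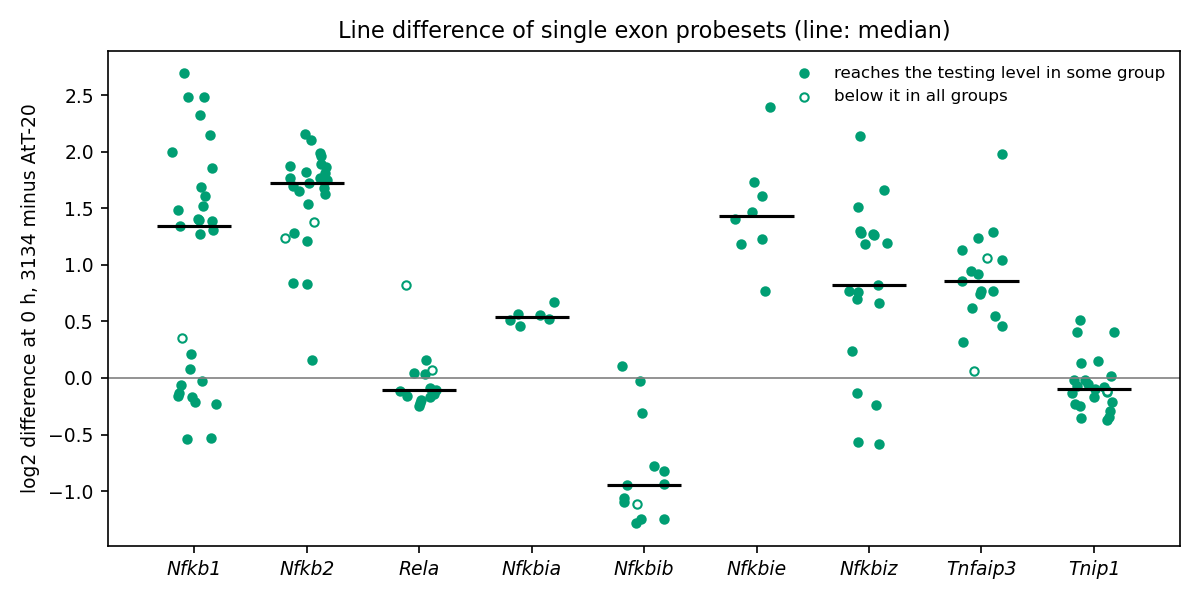
Log2 difference at 0 h, 3134 minus AtT-20 (vertical axis), for every probeset of the 9 measured members, with filled points for probesets that reach the testing level in some group, open points for dimmer ones and a bar at the median. Nfkb1 shows a lower group from -0.54 to 0.35 and an upper group from 1.27 to 2.69, while all 25 probesets of Nfkb2 lie above 0.

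In several other members all probesets lay on 1 side. All 25 probesets of Nfkb2 (0.16 to 2.16), all 17 of Tnfaip3 (0.06 to 1.98), all 8 of Nfkbie (0.77 to 2.39) and all 6 of Nfkbia (0.46 to 0.67) were higher in 3134. Of 19 Nfkbiz probesets 15 were higher (all 19 ran from -0.58 to 2.14), and of 13 Nfkbib probesets 12 were lower. In Rela 5 were higher and 9 lower, and in Tnip1 6 were higher and 17 lower. An exon test asks whether a probeset differs between the lines by another amount than the rest of its gene, over 0, 2 and 4 h. By limma's diffSplice it called 5 of 9 members, Nfkb1, Nfkb2, Nfkbie, Nfkbiz and Tnfaip3, and 56.9% of all genes. With each probeset's own spread, a setting added after the data were seen, it called Nfkb1 (adjusted p = 6.15e-05), Nfkb2 (0.00604), Nfkbiz (0.0147), Nfkbib (0.031) and Nfkbie (0.0476), and 47.7% of all genes. With the run as a block as well, 6 members were called, Tnfaip3 again among them, and 63.9% of genes. Tnfaip3 was not called when dim probesets were left out (adjusted p = 0.569), another setting added after the data were seen. Unequal probesets were therefore frequent among all genes in this comparison, and whether exon use or the behaviour of probes differed was not tested.

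The same test on the mean response to dexamethasone in 3134 called 0 of 9 members, and 0.444% of all genes. With each probeset's own spread it called 0 members and 0% of genes. The adjusted p-values of the members were 0.999 in the first. As the second called no gene at all, it cannot set the members apart from other genes. With the run as a block, diffSplice called 3.55% of genes and no member (adjusted p 0.815 to 0.997). Unequal change among the exons of a member was not detected.

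The 4 remaining Rel and IkB family genes add 1 call. Rel, the c-Rel subunit of lymphoid and some other cells, read 8.51 and 8.60 in 3134 at 0 h, 7.84 and 8.08 at 2 h, 7.71 and 8.18 at 4 h, then 7.93 and 7.85 at 8 h. All 6 treated arrays lay below both controls, and Rel was 1.54-fold lower over the mean of the 3 times (log2 -0.63, SE 0.14, limma adjusted p = 0.0452, and 0.00637 with the block). The call was lost on leaving out any of 7 of the 8 arrays, all but the second-run array at 4 h, with adjusted p up to 0.472. In AtT-20 Rel changed by -0.09 (SE 0.15), and the difference between the lines, -0.51, did not pass (adjusted p = 0.791).

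Bcl3, a nuclear IkB that binds p50 and p52 dimers, changed by 0.00 in 3134 and -0.17 in AtT-20 over these means, and Nfkbil1, an IkB-like protein, by 0.37 and 0.05; 0 of these passed. Nfkbid read 5.72 to 6.45 on all arrays and was too dim to test. At 0 h Rel was 1.67-fold higher in 3134 (adjusted p = 0.00352), and Bcl3 and Nfkbil1 were 1.42-fold and 1.79-fold lower (0.0309 and 0.0126). Without the first-run 3134 array or the second-run AtT-20 array at 0 h, the list had 1 call in place of 3.

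In the mean response of 3134, 2.42% of all genes tested passed, or 6.55% with the block, and the counts of the pathway lists stand beside these shares. The lists were chosen with earlier results of these data known, so their counts are descriptions. Among receptors that signal to NF-kB, 0 of 9 tested passed, or 2 lower with the block. Among adaptors and upstream kinases, 1 of 20 was lower, or 4 with the block. This was Traf3, which restrains the non-canonical pathway by promoting degradation of its kinase. Traf3 read 8.80 and 8.88 at 0 h, 8.24 and 8.15 at 2 h, 7.84 and 8.10 at 4 h, then 7.73 and 7.36 at 8 h, with every treated array below both controls. Its mean change was -0.94 (SE 0.14, limma adjusted p = 0.00219), and the call was lost without the second-run array at 0 h (adjusted p = 0.0686). Of 10 genes of the IkB kinase and IkB turnover, 0 passed, or 1 higher with the block.

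Of 18 feedback inhibitors outside the members, 2 were higher in 3134 and 0 lower, or 3 higher with the block. The choice of genes for this list, made with earlier results known, bears on that count. Dusp1, a phosphatase of MAP kinases, was 6.88-fold higher (adjusted p = 3.08e-06), and Tsc22d3, a glucocorticoid-induced leucine zipper protein that binds p65, 6.64-fold higher (adjusted p = 1.59e-04). Both changes were larger than that of any member, whose mean changes ran from -0.72 to 0.54. The 2 genes were named because they were called, so this ranking follows in part from their selection. The median log2 change of the 18 genes was 0.01. In AtT-20, over 2 and 4 h, Dusp1 and Tsc22d3 changed by 0.41 and 0.66 and neither passed. For Dusp1 the difference between the lines passed (log2 2.48, SE 0.26, adjusted p = 7.84e-04), while for Tsc22d3, 1.93, it was called in the blocked fit alone (adjusted p = 0.0641, and 7.45e-04 with the block).

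Of 16 tested genes often induced by NF-kB, a list that includes Nfkbia, 7 were lower and 2 higher in 3134, or 9 and 4 with the block. Their median log2 change was -0.69, beside -0.02 for all genes tested. Of the 16, 15 reached the testing level in 3134 at 0 h. A gene could be tested through that group alone, as Cxcl5 was (mean 8.295 at 0 h and 5.539 to 5.896 after). The count and the median carry that limit. Cxcl5, a neutrophil-attracting chemokine, was 6.15-fold lower (adjusted p = 7.43e-05), Plau, the urokinase plasminogen activator, 2.92-fold lower (1.90e-04), and Ier3, an immediate early gene, 2.41-fold lower (7.40e-04). Lcn2, an iron-carrier protein of the acute phase response, was 14.2-fold higher (2.06e-06). Cxcl1, a chemokine, was 2.04-fold lower (0.00831), a call lost without either array at 0 h (0.0908 and 0.164).

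The filter on low values bears on the comparison of the lines as well. Of the 32 listed genes, 16 were tested. All 16 reached the testing level in some 3134 group but 10 did so in AtT-20, and 8 reached it in both lines at 0 h. Counts over the list in AtT-20, between the lines at 0 h or for the difference of the responses are therefore not given. In AtT-20, Cxcl5 read 3.56 to 4.12, Plau 4.73 to 5.27 and Lcn2 4.32 to 5.22, all below the testing level, so a fall could not be measured there and no difference of responses is given for them. Ier3 read 6.56 to 6.99 in AtT-20, near that level, and changed by -0.14 (SE 0.17) over 2 and 4 h. Its difference between the lines was -1.23 (SE 0.24, limma adjusted p = 0.0445), a call lost in 14 of the alternatives run and kept in 7.

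For the 2 members that passed a dexamethasone comparison without the block, the genes most alike over the 15 arrays were found by Pearson correlation after the mean of each line and run was subtracted. For Nfkb2 these were Nrp1 (r = 0.954), Gpd2 (0.926) and Asap1 (0.909). For Nfkbie they were Ddhd1 (0.908), 2310067E19Rik (0.906) and Clic1 (0.89). The arrays of a line share their controls, so these are descriptions with no test. Nrp1, the neuropilin 1 receptor, read 9.87 and 10.27 in 3134 at 0 h and 9.06 and 9.57 at 4 h, and was lower than the control of its run on all 6 treated arrays of 3134 and all 5 of AtT-20.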

How the data were processed

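RNA of 2 cell lines was measured on 15 exon arrays. The authors deposited 1 table of log2 probeset values. Per the submitters' processing notes it came from Expression Console and RMA, with no version or setting given in the sources used. Of 228090 probesets, 207232 carried 1 gene symbol and were used; 2111 of 16207 symbols were updated through RefSeq synonyms. Column medians were 7.84 to 8.14 and 6.76 to 7.2 in the first and second run of 3134, and 7.51 to 7.86 and 6.93 to 7.22 in AtT-20, so the arrays were quantile normalized (a step that hides any global shift). Values were then the median of at least 3 probesets per gene. Genes whose highest group mean reached the 40th percentile of probeset values (log2 6.592) were tested in limma 3.58.1 (R 4.3.3) with lmFit and eBayes on 8 group means, all 15 arrays, and Benjamini-Hochberg adjustment over 9919 genes at 0.05. The number of arrays limits the precision.

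Runs were read from DS numbers in the sample titles, whose meaning the labels do not give. Deviations of same-run arrays from their group means correlated at 0.491 to 0.591 in 9 pairs within a line and at 0.276 to 0.39 in 12 pairs across lines. On these values alone the runs were treated as pairing the arrays; the block was set within each line, and the comparison of the lines does not pair across them. Exon use was tested with diffSplice; on simulated data it made false calls where probesets differ in spread, so a fit with each probeset's own spread was added. Members and gene lists were chosen with earlier results of these data known. Named genes were the members, the remaining family, up to 4 genes of each pathway list with the smallest p among those called in a mean response or in its difference between the lines, and the 3 genes most alike to each member called. Alternatives were scaling, filter, probeset summary, block, single-line fits and leaving out each array.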

Additional observations from a re-analysis of the deposited data

Results flagged for a closer look

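Among the members, Nfkbiz was flagged because the signs of its within-run changes were opposite in the lines at 4 h. The changes in 3134 were small, and the share of all genes with such signs was not counted. Against the 0 h array of the same run, the 3134 arrays read -0.04 and -0.13 and the AtT-20 arrays 0.44 and 0.13, a mean difference of -0.37 on the log2 scale. The difference was not tested at 4 h alone. Over the mean of 2 and 4 h it was -0.13 (95% interval -0.71 to 0.46) and did not pass. Outside the members, the changes of Rel, Nfkbid and Cxcl1 also had opposite signs in the lines at 4 h. Nfkbid was too dim to test, and Rel in AtT-20 rose by only 0.06 and 0.12. Group means of Cxcl1 in AtT-20 were 5.542 to 6.533, below the testing level of 6.592.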

How the results depend on the processing

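No value changed from a call in one direction to a call in the other under the alternatives run. Counts of called members are given here, with the numbers of all genes called beside most of them. These totals differed widely among the settings, so member counts of different settings cannot be compared directly. With the run as a replicate block, 2 were called in 3134 at 2 h, 2 at 4 h, 2 at 8 h, 3 for the mean, and 1 in AtT-20 at 4 h. Centring with the block gave 2 at each of 2, 4 and 8 h, 2 for the mean, and 1 for 8 against 2 h. Of 9934 genes tested, 478 were higher and 456 lower there at 8 h, and 168 and 172 for 8 against 2 h. The deposited scale with the block gave 2 at 4 h, 2 at 8 h, 2 for the mean, and 1 for 8 against 2 h. Of 10104 genes, 126 were higher and 1037 lower there at 8 h, and 29 and 231 for 8 against 2 h. The deposited scale without it gave 0 at 4 h, 0 for the mean, and 1 in place of 5 between the lines. It called 6 genes higher and 3 lower at 4 h, 20 and 4 for the mean, and 1039 and 940 between the lines. At 4 h, centring, no filter, bright probesets and the line's own arrays each gave 0, and the 60th percentile filter gave 2. There centring called 119 genes higher and 46 lower of 9934, and the 60th percentile filter 140 and 50 of 7511. The mean over probesets gave 1 at 2 h, 2 at 4 h and 1 at 8 h. Leaving out 1 array gave 0 to 0 at 4 h, 0 to 1 for the mean and 3 to 5 between the lines. The deposited scale moved the median of all genes by -0.256 in the mean response of 3134 and by 0.221 between the lines, and Nfkbie there changed by -0.995. Among genes often induced by NF-kB, calls in 3134 ran from 3 to 13. Leave-one-out was not run for the exon tests. With 1 or 2 arrays a group, and Nfkbie near the testing level in AtT-20, small changes were not measurable.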
